A study of Mus musculus with 30 samples.

Results

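The SOX factors of the chondrocyte lineage, Sox9, Sox5 and Sox6, were set against 4 genes tied to chondrocyte hypertrophy, Col10a1, Panx3, Mef2c and Runx3, in fracture callus. These 7 genes, of 43629 in the count table, were picked by name for their roles in cartilage, with earlier results of these data known. Callus RNA came from male C57BL/6J mice aged 20 weeks at surgery, which had an open osteotomy of the tibia held by an intramedullary nail. Diet-induced obese (DIO) mice were kept on a high-fat diet and Lean mice on a lean diet, and the groups shared strain, sex, age and operation. Callus was harvested post-fracture on d3, d5, d7 and d10 in both diets and in DIO mice also on d14 and d21. Each diet and day had 3 mice with a library each, 12 Lean and 18 DIO libraries in all, and different mice stood for different days. Every value of d14 and d21 is from DIO mice alone, since later Lean callus was not analysed here.

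A fracture that is not rigidly fixed heals largely through cartilage. Mesenchymal progenitors become chondrocytes under SOX9, which with its partners SOX5 and SOX6 switches on the genes of cartilage matrix. The chondrocytes later enlarge, lower their SOX factors and lay down type X collagen, and the hypertrophic cartilage is then replaced by bone. MEF2C and RUNX3 are transcription factors needed for that enlargement, RUNX3 together with RUNX2, and PANX3 is a membrane channel of prehypertrophic chondrocytes and osteoblasts. The comparison asks in which order, and on which days in each diet, the early and the late genes were expressed.

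The genes lie on GRCm38 as follows. Sox9 (ENSMUSG00000000567) lies at chr11:112782224-112787760 on the + strand, Sox5 (ENSMUSG00000041540) at chr6:143828425-144781977 on the - strand and Sox6 (ENSMUSG00000051910) at chr7:115470872-116038796 on the - strand. Col10a1 (ENSMUSG00000039462) lies at chr10:34389981-34397085 on the + strand, Panx3 (ENSMUSG00000011118) at chr9:37659902-37669235 on the - strand, Mef2c (ENSMUSG00000005583) at chr13:83504034-83667080 on the + strand and Runx3 (ENSMUSG00000070691) at chr4:135120652-135177990 on the + strand. An antisense gene, Sox5os1, covers 9.25% of the exon length of Sox5 and had 0 counts in the 30 libraries. Nt5dc1, on the strand opposite to Col10a1, shares 18 exon bases with it, 0.575% of its exon length. For the other members no exon base was shared with another annotated gene.

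The RefSeq promoter table (GRCm38.p6) held windows from 250 bases before to 50 bases after a start site for 5 of the 7 members, 13 windows in all. Sox9 and Panx3 had no entry. A window of each of 3 members is printed 5′ to 3′ on the gene's strand. That of Col10a1 is shown as the member with the widest range of expression, that of Sox5 as the SOX factor that was highest on the same DIO day as Sox9, and, of the 6 windows of Sox6, the one nearest the 5′ end of the gene, as the SOX factor that was highest on d21. The only window of Sox5 lies inside the gene, far from its 5′ end at position 144781977. Capitals mark the SOX core ACAAT.
Col10a1, chr10:34389731-34390030, + strand: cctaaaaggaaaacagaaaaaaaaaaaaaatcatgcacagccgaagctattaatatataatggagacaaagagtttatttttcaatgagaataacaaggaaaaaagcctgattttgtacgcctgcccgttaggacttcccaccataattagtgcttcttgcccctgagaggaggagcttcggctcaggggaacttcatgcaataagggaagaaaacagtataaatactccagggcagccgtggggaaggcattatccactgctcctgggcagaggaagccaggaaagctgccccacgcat
Sox5, chr6:143947057-143947356, - strand: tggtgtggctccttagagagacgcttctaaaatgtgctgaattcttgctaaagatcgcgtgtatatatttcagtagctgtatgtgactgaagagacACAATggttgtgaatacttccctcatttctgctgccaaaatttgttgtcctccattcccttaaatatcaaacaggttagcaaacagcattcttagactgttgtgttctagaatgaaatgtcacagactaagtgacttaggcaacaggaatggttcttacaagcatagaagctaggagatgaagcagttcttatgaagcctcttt
Sox6, chr7:116038695-116038994, - strand: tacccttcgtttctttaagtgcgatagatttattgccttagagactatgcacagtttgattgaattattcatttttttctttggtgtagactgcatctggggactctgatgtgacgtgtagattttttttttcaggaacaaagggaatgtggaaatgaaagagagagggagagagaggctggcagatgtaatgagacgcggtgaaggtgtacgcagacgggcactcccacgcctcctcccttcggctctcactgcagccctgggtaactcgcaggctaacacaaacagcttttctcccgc
On both strands, and with overlapping matches counted, the SOX core was present in 5 of the 13 member windows and in 31% of all 32851 windows of the table. The RUNX core TGTGGT was present in 3 of 13 and in 16.8% of all windows, and a MEF2 core, CTA and TAG with 4 bases between, in 1 of 13 and in 3.69%. The Col10a1 window held none of these letters, the Sox5 window held 1 SOX core starting 154 bases before the start site, and the Sox6 window shown held none. Of the 6 Sox6 windows 3 held a SOX core, 2 a RUNX core and 1 a MEF2 core. These are matches of letters only.

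Total counts ran from 13247122 to 26365620 per library (median 16854427). Values are CPM, a gene's counts divided by the library total and set to a common total, scaled with TMM factors, which ran from 0.779 to 1.11. The lowest factor belonged to Lean d10 mouse 1, which stood apart from its group and entered every Lean d10 result. Its summed CPM over 10 skeletal muscle markers was 1217, against 17790 and 12290 in the other Lean d10 mice, its B cell sum 9.52 against 106 and 65.2 CPM, and its osteoblast and osteocyte sum 66930 against 41940 and 55780 CPM. Muscle sums were 467 to 31310 CPM over all libraries, and all 10 markers averaged 1 CPM or more in every group. Endothelial sums stayed between 358 and 632 CPM and Schwann cell sums between 101 and 198 CPM. Osteoblast and osteocyte markers summed to between 14590 and 66930 CPM, and Col2a1, the main collagen of cartilage, had group means from 130 CPM on Lean d3 to 20950 CPM on Lean d10. RNA of both kinds of marker was thus detected, while the presence of bone and cartilage as tissues was not tested. The genes of the osteoblast and osteocyte sum moved unevenly: from DIO d3 to d10 their log2 fold changes ran from 0.52 for Col1a1 to 5.44 for Bglap. In bulk RNA, fewer cells of a type and less RNA per cell cannot be told apart, which holds for each value that follows.

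Sox9, the factor that commits cells to the chondrocyte fate, reached its highest level in DIO callus on d7 and was then lost. In DIO mice it measured 23.8, 41.7 and 39.5 CPM on d3, 87.6, 96.7 and 72.7 CPM on d5, and 148, 160 and 165 CPM on d7. It then measured 12.7, 26.7 and 19.1 CPM on d10, 10.2, 6.55 and 10.2 CPM on d14, and 1.27, 1.86 and 3.98 CPM on d21. No DIO library of d10, d14 or d21 overlapped those of d5 or d7, and the DIO d7 libraries were above all others in the series. In Lean mice Sox9 measured 21.3, 17.5 and 20.3 CPM on d3, 22.98, 39.7 and 66.1 CPM on d5, 31.5, 21.1 and 74.5 CPM on d7, and 133, 33.2 and 36.8 CPM on d10. The Lean libraries of d5, d7 and d10 overlapped one another, and on d10 a single mouse was about as high as the DIO mice of d7 while the other Lean d10 mice averaged 35.0 CPM.

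Sox5, which binds beside SOX9 and strengthens its action, was highest on DIO d7, as Sox9 was. In DIO mice it rose from 1.74, 2.28 and 3.01 CPM on d3 to 9.26, 7.86 and 6.71 CPM on d5, and measured 10.3, 11.1 and 11.6 CPM on d7. On d10 it was at 2.61, 2.54 and 1.77 CPM, on d14 at 0.764, 1.24 and 0.641 CPM, and on d21 at 1.15, 1.51 and 1.99 CPM. The d7 libraries stood above all others in the series, and those of d5 above all Lean libraries but Lean d7 mouse 3 and Lean d10 mouse 1, whose values lay within the DIO d5 range. In Lean mice Sox5 measured 1.40, 1.63 and 0.848 CPM on d3, 4.30, 3.702 and 6.42 CPM on d5, 3.20, 2.19 and 6.82 CPM on d7, and 7.58, 3.64 and 3.05 CPM on d10. Over the 30 libraries log2 CPM of Sox9 and Sox5 had a Pearson correlation of 0.82 and a Spearman correlation of 0.90, a description over libraries that share diet and day groups. Of the hypertrophy genes, Panx3 correlated with Sox9 at 0.89 (Pearson) and 0.81 (Spearman) and Runx3 at 0.80 and 0.79. The values with Sox9 were 0.49 and 0.54 for Col10a1 and 0.32 and 0.22 for Mef2c.

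Sox6, the close relative and partner of Sox5, was raised on DIO d7 with the other SOX factors but was highest on d21. In DIO mice it measured 15.8, 15.7 and 20.7 CPM on d3, 25.0, 36.7 and 22.97 CPM on d5, 50.8, 39.0 and 41.6 CPM on d7, and 14.3, 22.0 and 19.7 CPM on d10. After 19.5, 31.96 and 11.5 CPM on d14 it measured 110, 96.0 and 72.3 CPM on d21. The d21 libraries were above all others, and those of d7 above all the rest. In Lean mice it ranged from 10.7 to 24.4 CPM on d3, 20.1 to 21.1 CPM on d5, 21.3 to 32.4 CPM on d7 and 17.2 to 22.0 CPM on d10, with no difference between days passing the test in edgeR. The correlation of Sox6 with Sox9 over the 30 libraries was -0.29 (Pearson) and 0.16 (Spearman).

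**Figure D1:**
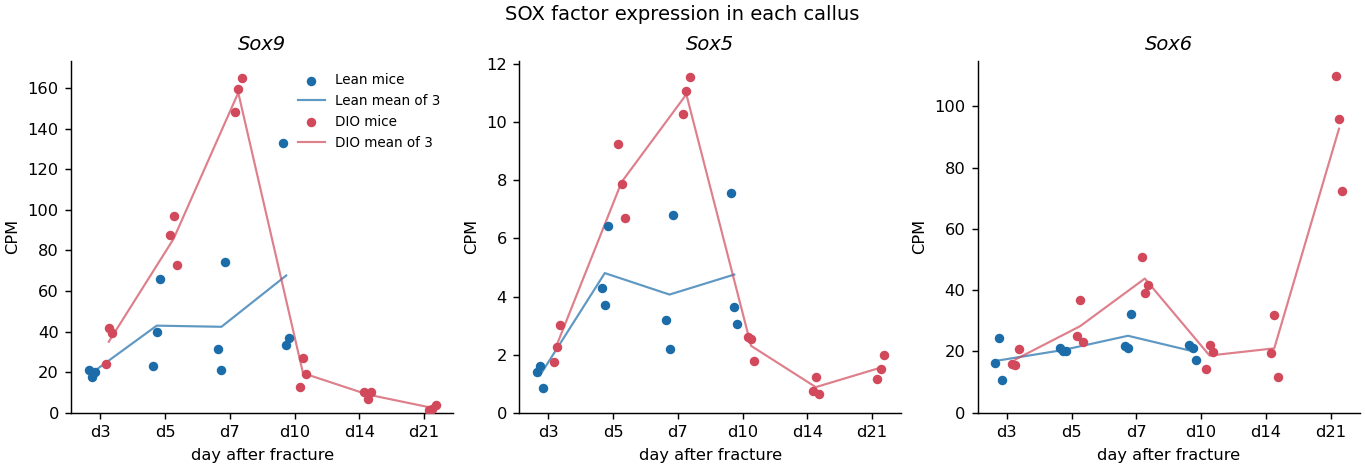
CPM of Sox9, Sox5 and Sox6 (vertical axes, linear) in each callus by day after fracture (horizontal axis, days evenly spaced), with a point for each Lean (blue) and DIO (red) mouse and lines through the means of 3 mice. Sox9 and Sox5 peaked on d7 in DIO mice at means of 158 and 11.0 CPM, 1 Lean d10 mouse stood apart in both, and Sox6 was highest on DIO d21 at 92.7 CPM.

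Col10a1, which encodes type X collagen, the marker of hypertrophic chondrocytes, had the widest range of the members. In Lean mice it measured 21.3, 1.63 and 1.10 CPM on d3, 134, 74.9 and 966 CPM on d5, 910, 668 and 2418 CPM on d7, and 12050, 3538 and 4619 CPM on d10. In DIO mice it measured 0.840, 0.621 and 4.49 CPM on d3, 1049, 660 and 274 CPM on d5, 5658, 1431 and 1665 CPM on d7, and 929, 1881 and 1392 CPM on d10. It was at 90.4, 20.4 and 423 CPM on d14 and at 9.57, 52.9 and 11.9 CPM on d21. Lean d3 mouse 1 stood apart from the other d3 libraries, but in both diets no library of d3 reached any library of d5, and in Lean mice no library of d7 reached d10. DIO libraries of d7 and d10 overlapped, as did those of d14 and d21.

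Panx3, the channel that appears as chondrocytes turn prehypertrophic, was already expressed on d3. In Lean mice it measured 99.4, 99.5 and 110 CPM on d3, 136, 114 and 348 CPM on d5, 231, 175 and 450 CPM on d7, and 571, 319 and 299 CPM on d10. In DIO mice it measured 60.9, 167 and 198 CPM on d3, 520, 314 and 305 CPM on d5, 739, 428 and 414 CPM on d7, and 158, 266 and 350 CPM on d10. It was at 127, 55.97 and 199 CPM on d14 and at 20.8, 24.4 and 24.6 CPM on d21. The d21 libraries were below all others in the series, and in DIO mice each d5 and d7 library was above each d3 library.

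Mef2c and Runx3, the transcription factors among the hypertrophy genes, had the narrowest ranges of the members. Group means of Mef2c lay between 114 ± 11.1 CPM on DIO d21 and 189 ± 22.2 CPM on DIO d14 (SD, n = 3), a 1.65-fold range, with single libraries from 105.4 to 230 CPM. Group means of Runx3 lay between 21.9 ± 4.01 CPM on DIO d21 and 44.5 ± 11.8 CPM on DIO d7 (SD, n = 3), a 2.03-fold range, with single libraries from 18.6 to 55.3 CPM. The same ratio of highest to lowest group mean was 5.43 for Sox6, 12.4 for Sox5, 22.6 for Panx3, 66.6 for Sox9 and 3398 for Col10a1. Neighbouring group means of Mef2c and of Runx3 overlapped in their libraries at every step of their order. In DIO mice, though, every Runx3 library of d3, d5 and d7 was at 31.9 CPM or more. Those of d14 and d21 were all at 29.8 CPM or less, a difference that was not tested. For Sox9 neighbours did not overlap between DIO d7 and DIO d5, between DIO d3 and Lean d3, and below DIO d10.

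Levels of different genes are compared per kilobase of exon length, taken over all annotated exons of a gene merged. That length was 14376 bases for Sox5, 14832 for Sox6 and 15715 for Mef2c, against 4135 for Sox9 and 5003 for Runx3. Which transcripts were expressed was not tested, so values that lie close together do not rank the genes. On DIO d7 the group means were 38.2 CPM per kilobase for Sox9, 2.95 for Sox6 and 0.763 for Sox5, and on DIO d21 they were 0.573, 6.25 and 0.108 in the same order. Sox9 was thus the most abundant SOX factor per length on d7 and Sox6 on d21. On Lean d10 Col10a1 stood at 2152 CPM per kilobase, Panx3 at 115, Mef2c at 9.96 and Runx3 at 7.57.

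**Figure D2:**
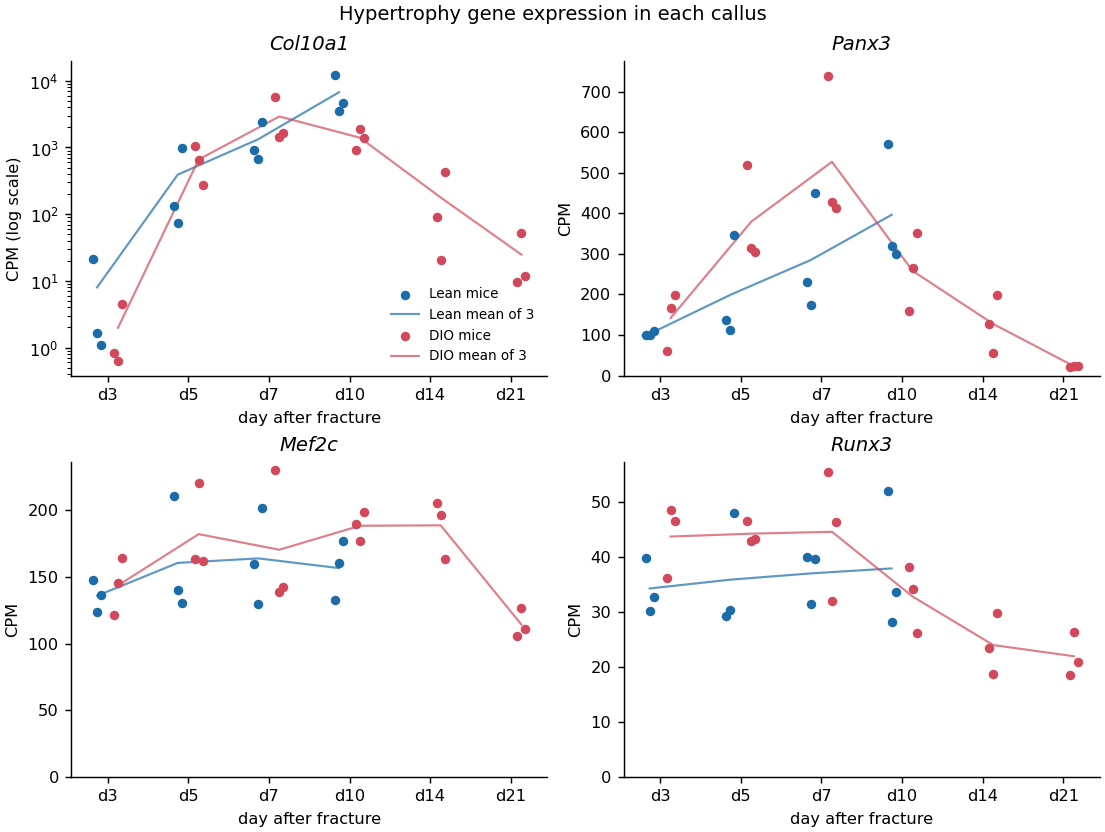
CPM of Col10a1 (log axis) and of Panx3, Mef2c and Runx3 (linear axes from 0) in each callus by day after fracture, with a point for each Lean (blue) and DIO (red) mouse and lines through the means of 3 mice. Col10a1 rose from a mean of 7.998 CPM to 6734 CPM in Lean mice between d3 and d10, Panx3 had its highest mean on DIO d7 at 527 CPM, and the group means of Mef2c and Runx3 spanned 1.65-fold and 2.03-fold.

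Changes between days were tested within each diet with the quasi-likelihood F-test of edgeR, with p-values adjusted by the Benjamini-Hochberg method over all genes that passed the filter on low counts and called at 0.05. All 7 members passed that filter in every comparison. From d3 to d10 in Lean mice 4 of 7 members rose, where 29.3% of 16471 genes were called. Col10a1 rose by a log2 fold change of 9.75 ± 1.59 (SE, adjusted p = 0.00151 in edgeR), Panx3 by 1.96 ± 0.45 (0.00773), Sox5 by 1.89 ± 0.49 (0.0141) and Sox9 by 1.80 ± 0.59 (0.0369). The calls of both SOX factors rested on Lean d10 mouse 1: without it the log2 fold change of Sox9 was 0.86 with an adjusted p of 0.21 and that of Sox5 1.39 with 0.0553 in edgeR. Sox9 also missed the threshold without any 1 of the Lean d3 libraries, with adjusted p of 0.0801 to 0.115 in edgeR. Sox6 (0.26 ± 0.26), Mef2c (0.22 ± 0.21) and Runx3 (0.17 ± 0.25) did not pass.

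The shorter Lean steps gave fewer calls. From d3 to d7 Col10a1 alone was called, at a log2 fold change of 7.40 ± 1.45 (adjusted p = 0.0262 in edgeR), with 1.67% of 16471 genes called. Its call was lost when 1 of 5 libraries was left out, all of those 2 days but Lean d3 mouse 1, with adjusted p of 0.0513 to 0.113 in edgeR. From d3 to d5 no member was called by edgeR, where 0.449% of genes were called. At that step 3 members had an unadjusted p under 0.05 and 2, Sox5 and Col10a1, were called by DESeq2. Between d5 and d7 edgeR called 0 members and 0% of genes, with 0 members but 926 genes at an unadjusted p under 0.05, and DESeq2 called 0 members and 38 genes. Between d7 and d10 edgeR and DESeq2 each called 0 members, none had an unadjusted p under 0.05, and edgeR called 2.73% of genes.

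In DIO mice 5 of 7 members rose from d3 to d7, where 7.3% of 16995 genes were called. Col10a1 rose by a log2 fold change of 10.59 ± 1.34 (adjusted p = 0.00011 in edgeR), Sox5 by 2.25 ± 0.29 (0.000124), Sox9 by 2.19 ± 0.31 (0.00024), Panx3 by 1.92 ± 0.44 (0.0129) and Sox6 by 1.36 ± 0.29 (0.00792). Panx3 missed the threshold without DIO d3 mouse 1 (adjusted p = 0.0639 in edgeR) or without DIO d7 mouse 1 (0.0586). Sox9, Sox5 and Col10a1 had been called from d3 to d5, where 1.68% of genes were called, at log2 fold changes of 1.29 ± 0.30, 1.76 ± 0.29 and 8.43 ± 1.24. That call of Sox9 (adjusted p = 0.0353 in edgeR) was lost without any 1 of the 6 libraries, with adjusted p of 0.0535 to 0.193. Between d5 and d7 edgeR called 0 members and 0.0177% of genes, with Sox9, Sox6 and Col10a1 at an unadjusted p under 0.05 and 0 members called by DESeq2.

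From d7 to d10 in DIO mice the 3 SOX factors fell and none of the 4 hypertrophy genes was called, where 13% of 16995 genes were called. Sox9 had a log2 fold change of -3.03 ± 0.32 (adjusted p = 1.15e-05 in edgeR), Sox5 of -2.26 ± 0.30 (7.78e-05) and Sox6 of -1.24 ± 0.29 (0.00795). These 3 calls held in every alternative fit and with any 1 library left out. The hypertrophy genes had log2 fold changes of -1.07 ± 0.89 for Col10a1, -1.04 ± 0.43 for Panx3, -0.46 ± 0.21 for Runx3 and 0.13 ± 0.19 for Mef2c. The 95% interval of the change in Col10a1 ran from -2.94 to 0.79 and that of Panx3 from -1.95 to -0.14. That of Sox9 ran from -3.71 to -2.35, and whether the genes differed in their change was not tested. Skeletal muscle markers summed to 8096 to 21790 CPM on DIO d7 and to 23380 to 31310 CPM on DIO d10, and the part of this shift in the result was not tested.

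Measured against d3, the d10 calli of DIO mice were far higher in Col10a1 but not in the SOX factors. Of the members only Col10a1 was called, at a log2 fold change of 9.52 ± 1.29 (adjusted p = 9.28e-05 in edgeR), with 21.8% of genes called. Sox9 was at -0.84 ± 0.31 (0.0589), Sox5 at -0.02 ± 0.30 (0.976), Sox6 at 0.11 ± 0.29 and Panx3 at 0.87 ± 0.43. Sox9 passed the threshold, as lower, without DIO d3 mouse 1 (adjusted p = 0.0346 in edgeR) or without DIO d10 mouse 2 (0.0347), where 16% and 13.4% of genes were called.

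After d10 edgeR called no member until the step from d14 to d21, at which Col10a1, Panx3 and Mef2c fell and Runx3 did not pass. From d10 to d14 edgeR called 0 members and 0.759% of genes, with 4 members at an unadjusted p under 0.05 and 2, Sox9 and Sox5, called by DESeq2. The log2 fold changes at that step were -2.98 ± 0.95 for Col10a1 (adjusted p = 0.129 in edgeR), -1.38 ± 0.32 for Sox5 (0.0526) and -1.12 ± 0.32 for Sox9 (0.0957). Col10a1 was called without DIO d14 mouse 3, at -4.64 (0.0296), where 2.64% of 17374 genes were called. From d14 to d21 edgeR called 5 of 7 members and 19.6% of genes, 1800 of them higher and 1535 lower, a split that upper-quartile factors in place of TMM turned to 1422 and 2298. Panx3 had a log2 fold change of -2.43 ± 0.45 (adjusted p = 0.0019), Sox9 of -1.89 ± 0.35 (0.00186), Col10a1 of -2.82 ± 0.95 (0.045) and Mef2c of -0.71 ± 0.19 (0.0167). The call of Col10a1 was lost without DIO d14 mouse 1 or 3 or DIO d21 mouse 1 or 3, with adjusted p of 0.0566 to 0.399 in edgeR, and the call of Mef2c without DIO d14 mouse 1 (0.0626) or DIO d21 mouse 1 (0.074). Without DIO d14 mouse 3 the log2 fold change of Col10a1 was -1.16.

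Sox6 alone rose from d14 to d21, by a log2 fold change of 2.15 ± 0.29 (adjusted p = 0.000267 in edgeR), a 4.44-fold rise that held in every alternative fit. Sox5 was at 0.84 ± 0.32 (adjusted p = 0.0755 in edgeR) and passed without DIO d14 mouse 2, at 1.15 (0.0346), where 18% of 17444 genes were called. Outside cartilage Sox6 is also known from maturing erythroid cells. Erythroid markers moved on the same days: the summed CPM of 8 of them, haemoglobin genes included, was 3980 to 12870 on d14 and 27110 to 38530 on d21, all 8 detected at 1 CPM or more on average on both days. Of these 8 markers 5 rose from d14 to d21, where 19.6% of all genes were called in edgeR. Their median log2 fold change was 2.22, against -0.03 over all genes tested. On d14 the mouse with the highest erythroid sum, 12870 CPM, also had the highest Sox6, 31.96 CPM. On d21 the mouse with the highest sum, 38530 CPM, had the highest Sox6, 110 CPM. The d21 mouse with the lowest sum, 27110 CPM, had 96.0 CPM of Sox6, and that with 29890 CPM had 72.3 CPM. On DIO d7 the orders differed, as the mouse with 8011 CPM of erythroid markers had 41.6 CPM of Sox6 and that with 1570 CPM had 50.8 CPM. The orders were equal on DIO d10 and differed on DIO d3 and d5. B cell sums were 232 to 421 CPM on d14 and 502 to 654 CPM on d21, and those of T and NK cells 57.1 to 69.0 and 75.6 to 89.5 CPM. The part of these cells in the Sox6 values was not tested. Osteoblast and osteocyte sums were 24050 to 47140 CPM on d14 and 14590 to 26050 CPM on d21, beside the fall of Panx3, and their part in it was not tested.

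The timing of each gene within a diet was described by the day of its highest mean, with no test. In DIO mice Sox9, Sox5, Col10a1, Panx3 and Runx3 had their highest mean on d7, Mef2c on d14 and Sox6 on d21. The days around d7 are given as percentages of each gene's own d7 mean. On d5 in DIO mice Sox5 stood at 72.5% and Sox9 at 54.3% of their own d7 mean, Panx3 at 72.0% and Col10a1 at 22.7%. On d10 Sox9 had 12.4% and Sox5 21.0% of the d7 mean left, while Col10a1 had 48.0% and Panx3 49.01%. The percentages of Col10a1 rested on DIO d7 mouse 1, without which they were 42.7% on d5, 90.5% on d10 and 11.5% on d14. By d14 the values were 5.68% for Sox9, 8.04% for Sox5, 6.10% for Col10a1, or 1.90% without DIO d14 mouse 3, and 24.2% for Panx3. In Lean mice Col10a1 and Panx3 had their highest mean on d10, the last Lean day, Sox5 on d5 and Sox6 on d7. Sox9 was highest on d10 as well, but on d5 by the median over mice or without Lean d10 mouse 1. For Sox5 the Lean means of d5, d7 and d10 were 4.81, 4.07 and 4.76 CPM, and its peak day changed when single libraries were left out. The peak days of Mef2c and Runx3, the members with the narrowest ranges, changed likewise in both diets.

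**Figure D3:**
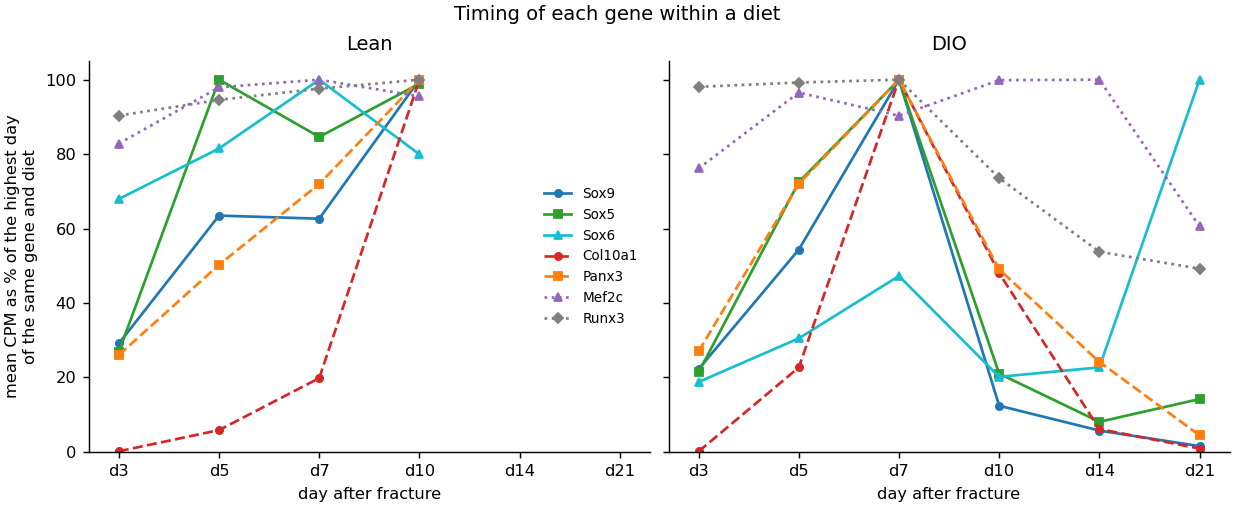
Mean CPM of each gene as a percentage of its highest day within the diet (vertical axis) by day after fracture (horizontal axis, days evenly spaced), for Lean (left) and DIO (right) means of 3 mice, with solid lines for SOX factors, dashed lines for Col10a1 and Panx3 and dotted lines for Mef2c and Runx3. In DIO mice Sox9 fell to 12.4% and Col10a1 to 48.0% of the d7 mean by d10 (90.5% for Col10a1 without DIO d7 mouse 1), and in Lean mice Col10a1 stood at 19.8% on d7 (11.7% without Lean d7 mouse 3, 32.7% without Lean d10 mouse 1) and was highest on d10.

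The balance of Col10a1 against Sox9 was taken in each callus as a log2 ratio, the difference of their log2 CPM with a prior count of 2. Library scaling largely cancels in it, and the prior count draws ratios with low counts towards zero. In Lean mice it was 0.00, -3.34 and -4.07 on d3, 2.53, 0.92 and 3.87 on d5, 4.85, 4.98 and 5.02 on d7, and 6.50, 6.73 and 6.97 on d10. Lean d10 mouse 1, at 133 CPM of Sox9 against 35.0 CPM on average in the other Lean d10 mice, differed from them by less in this ratio than the mice of d3 or d5 did among themselves. In DIO mice the ratio was -4.65, -5.83 and -3.11 on d3, 3.58, 2.77 and 1.91 on d5, 5.25, 3.16 and 3.33 on d7, and 6.18, 6.13 and 6.18 on d10. On d10 the SD between mice was 0.23 in Lean and 0.03 in DIO, with the DIO ratios all below the Lean ones. The ratio then fell to 3.14, 1.62 and 5.36 on d14 and 2.81, 4.75 and 1.55 on d21. In both diets the ratio thus climbed from d3 to d10, over libraries in which Sox9 itself was at 12.7 to 133 CPM on d10.

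**Figure D4:**
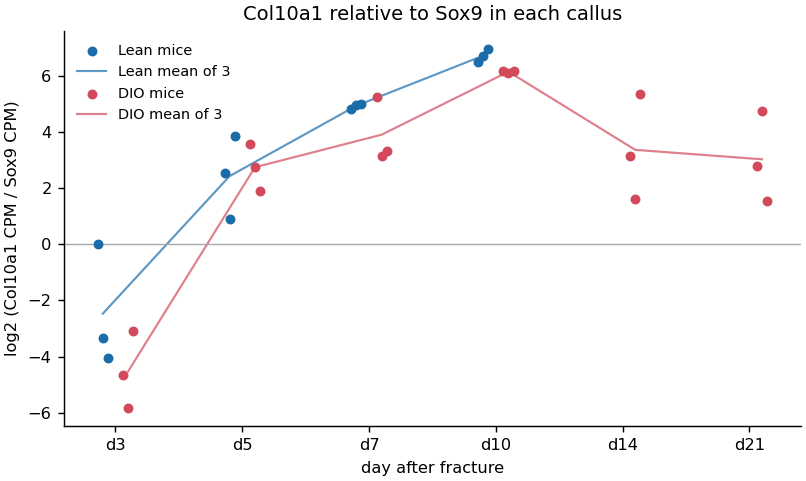
The log2 ratio of Col10a1 CPM to Sox9 CPM, with a prior count of 2 (vertical axis), in each callus by day after fracture, with a point for each Lean (blue) and DIO (red) mouse and lines through the means of 3. The mean ratio climbed from -2.47 to 6.73 in Lean mice and from -4.53 to 6.16 in DIO mice between d3 and d10, and was 3.37 on DIO d14.

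Between diets, Sox9 and Sox5 were higher in every DIO library than in every Lean library on d3, d5 and d7 and lower on d10, as was Col10a1 on d10, where 21.1%, 23.2%, 22% and 14.3% of all genes did not overlap on d3, d5, d7 and d10. In edgeR only Sox9 on d7 passed the test across genes, while DESeq2 called Sox9 on d3 and d5 and Sox9, Sox5 and Sox6 on d7. On d7 Sox9 was 3.73-fold higher in DIO mice, a log2 fold change of 1.90 ± 0.39 (adjusted p = 0.041 in edgeR), and 2.32% of 15753 genes were called on that day. Sox5 (1.43 ± 0.39, adjusted p = 0.1), Sox6 (0.81 ± 0.22, 0.0978), Col10a1 (1.14 ± 0.60, 0.391) and Panx3 (0.89 ± 0.36, 0.258) did not pass in edgeR. The Sox9 call was lost without Lean d7 mouse 1 (adjusted p = 0.122 in edgeR), Lean d7 mouse 2 (0.123), DIO d7 mouse 1 (0.075) or DIO d7 mouse 2 (0.0762), with log2 fold changes from 1.57 to 2.61 over all alternatives. Without Lean d7 mouse 3, the Lean mouse with the highest Sox9, Sox5 was called as well, at 2.05 (0.0222), where 1.5% of 16111 genes were called. On the same day myeloid markers summed to 4855 to 5989 CPM in Lean and 2415 to 4268 CPM in DIO mice, B cell markers to 70.9 to 73.0 and 15.3 to 40.8 CPM, and T and NK cell markers to 39.1 to 49.4 and 11.4 to 37.0 CPM, and their part in the difference was not tested.

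On d3 edgeR called 0 members and 0% of 15772 genes between diets, with 2374 genes, Sox9 and Sox5 among them, at an unadjusted p under 0.05, while DESeq2 called 757 genes and of the members Sox9. On d5 edgeR called 0 members and 1.08% of 15722 genes, with Sox9, Sox5 and Sox6 at an unadjusted p under 0.05 and Sox9 called by DESeq2. The log2 fold changes of Sox9 were 0.82 ± 0.21 on d3 (adjusted p = 0.148 in edgeR) and 0.99 ± 0.33 on d5 (0.168). Without Lean d5 mouse 3, 4 members were called on d5 as higher in DIO mice, where 5.82% of 16064 genes were called: Sox9 at 1.44 (adjusted p = 0.0248 in edgeR), Col10a1 at 2.66 (0.0347), Panx3 at 1.59 (0.0195) and Runx3 at 0.56 (0.0434). That mouse had the highest value of its group in each of these 4 members. Its muscle sum was 5477 CPM, against 21360 and 15150 CPM in the other Lean d5 mice. Its osteoblast and osteocyte sum was 51270 CPM, against 23470 and 24600 CPM, and the part of this in the calls was not tested. Col10a1 on d3 was at -2.05 ± 1.18 (0.451), a direction set by Lean d3 mouse 1, without which it was 0.48 (0.805). On d10 edgeR called 0 members and 0% of 15341 genes, with 1082 genes at an unadjusted p under 0.05 and 56 called by DESeq2, none of them a member. The log2 fold changes on d10 were -2.26 ± 0.49 for Col10a1, -1.78 ± 0.53 for Sox9 and -1.04 ± 0.43 for Sox5, each with an adjusted p of 0.686 in edgeR and an unadjusted p under 0.05. Without Lean d10 mouse 1 Col10a1 passed, at -1.55 (adjusted p = 0.0405 in edgeR), where 0.0634% of 15766 genes were called. Muscle markers summed to 23380 to 31310 CPM in DIO and 1217 to 17790 CPM in Lean mice on d10, and the part of this in the d10 differences was not tested.

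The libraries of the diets can also be read by whether they overlapped. On d3 all 3 DIO libraries were above all 3 Lean libraries in Sox9 and Sox5, 2 of 7 members. On that day 21.1% of genes did not overlap in either direction, a share too near for a result about the members. On d5 and on d7 this was so for Sox9, Sox5 and Sox6, where 23.2% and 22% of genes did not overlap. On d10 the DIO libraries were all below the Lean ones in Sox9, Sox5 and Col10a1 and all above them in Mef2c, where 14.3% of genes did not overlap. Runx3 and Panx3 overlapped between diets on each of the 4 days. Mef2c on d10 measured 132, 161 and 177 CPM in Lean and 190, 177 and 199 CPM in DIO mice, a log2 fold change of 0.28 ± 0.17 (adjusted p = 0.703 in edgeR). Its nearest libraries were almost equal, at 176.8 CPM in Lean and 176.9 CPM in DIO mice.

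**Figure D5:**
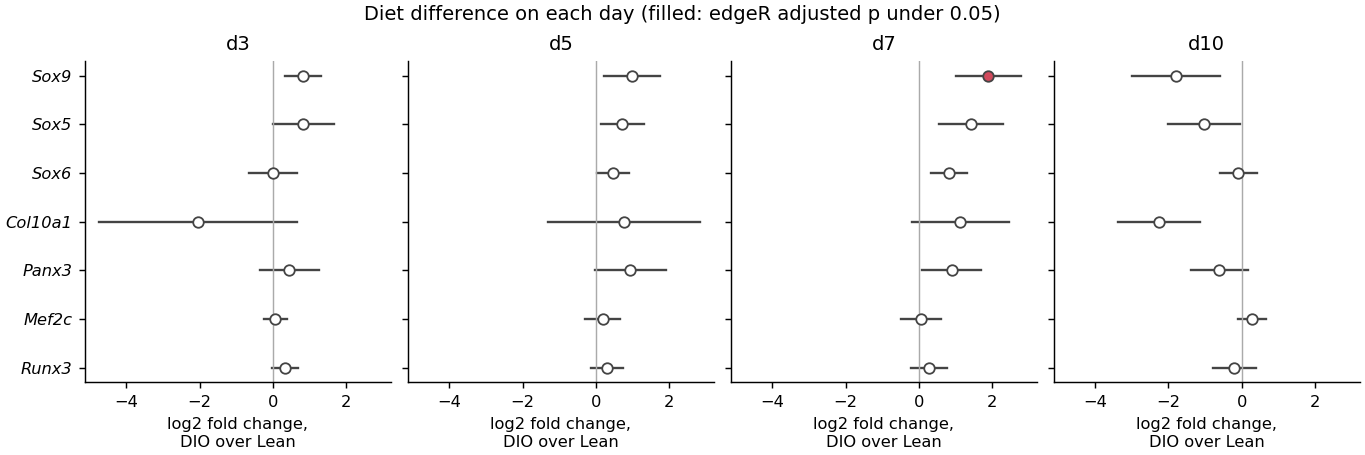
The log2 fold change of DIO over Lean (horizontal axis) for each member (vertical axis) on d3, d5, d7 and d10, with 3 mice per diet and bars for the 95% interval, and filled points for an edgeR adjusted p under 0.05. Sox9 lay at 0.82, 0.99 and 1.90 on d3, d5 and d7 and at -1.78 on d10, and Sox9 on d7 was the only member and day called.

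Whether the diet difference itself changed from d7 to d10 was tested as an interaction over 24 libraries, all those of the 4 days shared by the diets, where 5.07% of 17057 genes were called. It changed for 2 of 7 members. For Sox9 the change was -3.69 ± 0.68 on the log2 scale (95% interval -5.11 to -2.28, adjusted p = 0.00487 in edgeR) and for Sox5 -2.48 ± 0.55 (-3.61 to -1.34, 0.0131). The Sox9 call held in all 19 alternatives, with an adjusted p of 0.0222 at most, and that of Sox5 was lost without Lean d10 mouse 1, at -1.96 (adjusted p = 0.0577 in edgeR). Col10a1 was at -3.40 ± 1.39 (0.147), Panx3 at -1.51 ± 0.64 (0.162) and Sox6 at -0.91 ± 0.35 (0.13). Mef2c (0.21 ± 0.30) and Runx3 (-0.48 ± 0.33) had intervals that included 0. From d7 to d10 the DIO mean of Sox9 went from 158 to 19.5 CPM and the Lean mean from 42.4 to 67.6 CPM, or to 35.0 CPM without Lean d10 mouse 1.

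A list of 16 cartilage matrix genes that depend on the SOX factors, such as Col2a1 and Acan, was followed beside them, chosen with earlier results of these data known. In Lean mice all 16 were called as higher on d10 than on d3, where 29.3% of all genes were called (median log2 fold change 6.48, against 0.02 over all genes tested), and in DIO mice all 16 on d7, where 7.3% were (6.48 against 0.03). Among those with the smallest adjusted p, Chad, which encodes chondroadherin, rose by 6.51 and Col9a2, a chain of type IX collagen, by 7.78 in Lean mice, and in DIO mice Cnmd, encoding chondromodulin, rose by 9.31 and Col27a1 by 2.15. From d7 to d10 in DIO mice 13 of 16 were called as lower, where 13% of all genes were called (median -3.02), among them Col27a1 at -2.44 (adjusted p = 1.15e-05 in edgeR) and Ucma, which encodes a cartilage matrix protein, at -5.33 (0.000768). From d10 to d14 3 of 16 were called as lower, against 0.759% of all genes called, and from d14 to d21 none in edgeR, with a median of -0.76. Between diets 5 of 16 were higher in DIO mice on d7, against 2.32% of all genes called, Ucma (4.49, adjusted p = 0.0018 in edgeR) and Cnmd (2.40, 0.028) among them, and 0 of 16 passed on d3, d5 or d10. The medians on those days were 0.61 over the 13 genes tested, 1.31 and -2.68. The diet difference fell from d7 to d10 for 12 of 16, against 5.07% of all genes called (median -4.87), Ucma at -8.35 (0.00199) and Acan at -4.97 (0.00487) included.

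A second list held 17 regulators and markers of hypertrophy and ossification, chosen in the same way. In Lean mice 11 of 17 were higher and 1 lower on d10 than on d3, against 29.3% of all genes called (median 1.37), with Spp1, which encodes osteopontin, at 2.46 (adjusted p = 0.000155 in edgeR) and Mmp13, the collagenase of hypertrophic cartilage, at 2.88 (0.000418). In DIO mice 4 were higher on d7 than on d3, against 7.3% of all genes called, and 3 were higher and 2 lower on d10 than on d7, against 13%. The 4 of 17 that were lower on d21 than on d14 stood beside 19.6% of all genes called, a share too near for a result about the list. Fgfr3, a growth factor receptor of proliferating and prehypertrophic chondrocytes, moved from 301 to 108 CPM between DIO d7 and d10, a log2 fold change of -1.50 (0.000415). Spp1 and Mmp13 were the only members of the list called from d7 to d10 in Lean mice, both as higher. On d21 Sp7, a transcription factor of osteoblasts, was lower than on d14 by -1.61 (0.00323) and Alpl, alkaline phosphatase, by -1.22 (0.0241). Between diets 2 of 17 passed on d7, where 2.32% of all genes did, Foxa3 (2.18, 0.0273) and Fgfr3 (1.21, 0.0273), and 5 of 17 had a diet difference that fell from d7 to d10, against 5.07% of all genes called.

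Relatives of the members set the level of each family. Sox8, the closest relative of Sox9, kept to the course of Sox9 at low level, with means of 1.49, 8.11, 13.5, 2.97, 1.62 and 0.643 CPM over the 6 DIO days and 0.995, 4.64, 4.77 and 6.85 CPM over the 4 Lean days. The Lean d10 mean rested on a single mouse at 14.35 CPM, with the others at 2.96 and 3.23 CPM. In DIO mice Sox8 was lowest on d21. It rose from d3 to d7 in DIO mice by 3.21 (adjusted p = 9.43e-06 in edgeR), fell from d7 to d10 by 2.19 on the log2 scale (0.000118) and from d14 to d21 by 1.31 (0.0153). Of the 11 relatives 9 were tested, and from d7 to d10 in DIO mice 1 was called as higher and 2 as lower, where 13% of all genes were called. Sox13, which groups with Sox5 and Sox6, had means of 10.2 to 21.3 CPM, and Sox10, which marks Schwann cells, of 0.304 to 1.90 CPM. Runx2, a relative of Runx3 that also has a role in hypertrophy, had means of 78.5 to 115 CPM, Runx1 of 55.4 to 134 CPM and their cofactor Cbfb of 75.7 to 124 CPM. Mef2a had means of 90.1 to 146 CPM and Mef2d of 125 to 190 CPM, near those of Mef2c, while Mef2b was at 0.153 CPM or less. Panx1 had means of 16.96 to 23.5 CPM and Panx2 of 0.191 CPM or less, and Mef2b and Panx2 did not pass the filter on low counts. Runx3 was called in none of the 17 comparisons and Mef2c in 1, from d14 to d21. None of these comparisons set d14 or d21 against d7 or an earlier day.

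For each member but Mef2c the 3 genes with the most similar course were taken by the Pearson correlation of log2 CPM over the 30 libraries, among 14808 genes with a mean of at least 1 CPM, as a description over libraries that share groups and depth. Those of Sox9 were Nid2, Arsi and Enc1 (0.96 each). Those of Sox5 were Col27a1 (0.92), Zim1 and Itih5l-ps (0.91 each). Those of Sox6 were Map4k5 (0.89), Sertad2 (0.85) and Dyrk1a (0.84). Col10a1 was nearest to Snorc (0.98), a cartilage proteoglycan, then Clec3a (0.95) and 4631405J19Rik (0.94). Panx3 was nearest to Frzb (0.97), Ibsp (0.96), which encodes bone sialoprotein, and Plxnb1 (0.95). Runx3 was nearest to Golga2 (0.93), Zfp469 (0.92) and Wipi1 (0.91). With the Spearman correlation 2 of the 3 genes of Col10a1 were kept, none of those of Sox9 and Sox6, and 1 of 3 for Sox5, Runx3 and Panx3.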

How the data were processed

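RNA of 30 fracture calli was made into polyA-selected stranded libraries and sequenced in pairs. According to the methods and processing notes, the authors trimmed the reads, aligned them to GRCm38 with HISAT2 2.1.0 and counted them per gene with HTSeq, and they deposited raw read counts with no normalization. Which HTSeq release, annotation and strand setting produced the table is not given in the sources used here, so antisense reads may not have been told apart. Of 43629 gene identifiers 42462 matched GENCODE M21, which gave positions and exon lengths. All 30 sample columns were used.

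Counts were scaled with TMM factors and filtered with filterByExpr by group, and tested in edgeR 4.0.16 (R 4.3.3) by its quasi-likelihood F-test, two-sided, with Benjamini-Hochberg adjustment over all genes and a threshold of 0.05. Standard errors were taken from the fold change and its F. Lean days were compared in 1 fit of 12 libraries, DIO days in 1 fit of 18, the diets on a day in a fit of its 6 libraries, and the change of the diet difference in 1 fit of 24. Fits were tested on simulated data with known answers. Log2 CPM for correlations and for log2 ratios used a prior count of 2.

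The members and all gene lists were chosen with earlier results of these data known. Named genes are all members, their 3 nearest genes (those of Mef2c are not reported here), at most 4 genes per comparison of the matrix, hypertrophy and family lists by smallest adjusted p, and each family relative by its level. Col2a1 and genes given as examples of a list or by their levels were added after values were seen. As alternatives, fits used DESeq2 1.42.0, upper-quartile or RLE factors, filters of 0.5 CPM in 1 library or of 1 count, the replicate number as a block, all 30 libraries in 1 fit, and each library left out in turn. Labels give biological repeats of separate mice. The chi-square per degree of freedom between libraries of a group was 13.6 or more, so none was a duplicate. Depth was 13247122 to 26365620 counts, and intervals cover the spread between mice. Repeat numbers name different mice. Deviations of equal numbers correlated above 0.1 in every pair only between Lean d5 and d7 (0.204 to 0.276), where the fit with the number as a block called 0 genes, as did that without it.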

Additional observations from a re-analysis of the deposited data

Results flagged for a closer look

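The diet difference changed between days for a pair of members, by the interaction test of edgeR over 24 libraries, which called 5.07% of all genes. For Sox9 the DIO minus Lean difference changed by -3.69 on the log2 scale from d7 to d10, with 3 DIO libraries above the Lean ones on d7, where 22% of genes did not overlap, and 3 below them on d10, where 14.3% did not. For Sox5 it changed by -2.48, with the same order of libraries on both days, and its call was lost without Lean d10 mouse 1, at -1.96 (adjusted p = 0.0577 in edgeR).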

How the results depend on the processing

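Over 119 pairs of member and comparison, 1588 values were refitted. Of the 25 pairs called, 16 held under every alternative and none changed sign, and over all values 32 lost and 36 gained a call. Of uncalled pairs 27 changed sign, in 58 values, none of which was called. With all libraries kept these were Sox9 from Lean d5 to d7 (0.0088 with upper-quartile factors, 0.00017 with all 30 libraries), Mef2c from DIO d10 to d14 (-0.0029 with RLE, -0.0024 with upper-quartile factors, -0.0024 with DESeq2, -0.012 with the filter of 0.5 CPM), Sox5 from DIO d3 to d10 (0.019 with upper-quartile factors) and Sox6 between diets on d3 (-0.0023 with RLE, -0.0094 with all 30). With 1 library left out, the log2 fold changes of the uncalled pairs that changed sign ran for Mef2c from -0.0076 to 0.36 for Lean d3 to d5, -0.14 to 0.29 for Lean d5 to d7, -0.21 to 0.12 for Lean d7 to d10, -0.35 to 0.076 for DIO d5 to d7, -0.089 to 0.11 for DIO d10 to d14, -0.0098 to 0.40 for DIO d3 to d7, -0.031 to 0.17 between diets on d3 and -0.20 to 0.26 between diets on d7. They ran for Runx3 from -0.21 to 0.20 for Lean d3 to d5, -0.066 to 0.31 for Lean d5 to d7, -0.24 to 0.21 for Lean d7 to d10, -0.13 to 0.32 for Lean d3 to d10, -0.099 to 0.096 for DIO d3 to d5, -0.15 to 0.22 for DIO d5 to d7, -0.27 to 0.065 for DIO d14 to d21, -0.14 to 0.24 for DIO d3 to d7 and -0.38 to 0.080 between diets on d10. They ran for Sox9 from -0.70 to 0.44 for Lean d5 to d7 and -0.26 to 1.37 for Lean d7 to d10. They ran for Sox5 from -0.83 to 0.070 for Lean d5 to d7, -0.27 to 0.83 for Lean d7 to d10 and -0.18 to 0.20 for DIO d3 to d10. They ran for Sox6 from -0.29 to 0.47 for DIO d10 to d14, -0.022 to 0.27 for DIO d3 to d10, -0.24 to 0.36 between diets on d3 and -0.23 to 0.058 between diets on d10. They ran for Col10a1 from -3.46 to 0.48 between diets on d3. The number of members called differed from that reported in these cases. With DESeq2 it was 2 for Lean d3 to d5, 3 for Lean d3 to d7, 2 for DIO d10 to d14, 2 for DIO d3 to d10, 1 between diets on d3, 1 on d5 and 3 on d7. Without a filter other than 1 count it was 1 for Lean d3 to d5, 3 for DIO d10 to d14, 2 for DIO d3 to d10, and 1, 3 and 1 between diets on d3, d7 and d10. With all 30 libraries in 1 fit it was 2 for Lean d3 to d5, 2 for Lean d3 to d7 and 2 between diets on d7. The cause was not tested. Leaving out 1 library gave 0 to 1 members for Lean d3 to d7, 2 to 4 for Lean d3 to d10, 0 to 1 for DIO d10 to d14, 3 to 6 for DIO d14 to d21, 1 to 2 for DIO d3 to d10, 0 to 4 between diets on d5, 0 to 2 on d7, 0 to 1 on d10 and 1 to 2 for the change from d7 to d10. Over all genes the counts in those fits were, in the same order, 57 to 316, 2863 to 5016, 0 to 459, 1285 to 4070, 2184 to 3685, 0 to 935, 29 to 936, 0 to 10 and 257 to 1660.

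The day of the highest mean moved for Sox9 in Lean mice to day 5 by the median over mice. By the median it moved for Mef2c in Lean mice to day 10 and for Runx3 to day 7 in Lean and day 3 in DIO mice, and for Runx3 to the same days without TMM factors. Leaving out 1 library gave day 5 to day 10 for Sox9, Sox5, Mef2c and Runx3 in Lean mice, day 5 to day 14 for Mef2c and day 3 to day 7 for Runx3 in DIO mice.

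With the replicate block, for numbers that do not pair the mice, 1 member call was lost, Col10a1 from DIO d14 to d21 (log2 fold change -2.57, adjusted p = 0.116 in edgeR). The block moved the all-gene count from 74 to 199 for Lean d3 to d5, 275 to 451 for Lean d3 to d7, 450 to 1479 for Lean d7 to d10, 129 to 45 for DIO d10 to d14, 0 to 325 between diets on d3 and 170 to 0 on d5.

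All-gene counts with DESeq2 were 598 for Lean d3 to d5, 38 for d5 to d7, 1770 for d7 to d10 and 839 for d3 to d7, against 74, 0, 450 and 275 with edgeR. In DIO mice they were 581 against 285 for d3 to d5, 337 against 3 for d5 to d7 and 554 against 129 for d10 to d14. Between diets they were 757, 1118, 922 and 56 against 0, 170, 366 and 0 on d3, d5, d7 and d10, and 1481 against 865 for the change from d7 to d10. With no filter but 1 count they were 169 for Lean d3 to d5, 478, 271 and 329 for these DIO steps, and 515, 565, 724 and 29 between diets. With all 30 libraries in 1 fit they were 202, 2, 1529 and 523 for the Lean steps as ordered above, 1 for DIO d5 to d7 and 2 for DIO d10 to d14, and 63, 675 and 3 between diets on d5, d7 and d10. On d3 between diets 1 gene was called with upper-quartile factors and 1 with the filter of 0.5 CPM.

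From DIO d14 to d21 upper-quartile factors called 1422 genes as higher and 2298 as lower, against 1800 and 1535 with TMM, and shifted the members' log2 fold changes by -0.10, with the same members called.

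Groups of 3 mice limit what could be called, as the SE of a log2 fold change between days was up to 1.59 for Col10a1 and 0.30 to 0.59 for Sox9.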
